A study of Rattus norvegicus with 74 samples.

Results

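Liver responses of Wistar Han rat pups to BDE-47 were set, gene by gene, against responses of Wistar Han rat liver to phenobarbital. BDE-47 is a brominated diphenyl ether used in flame retardant mixtures, and phenobarbital is a barbiturate sedative. An equal age of the phenobarbital animals is not shown. The quantity tested was a difference of responses: log2 expression at 50 mg/kg BDE-47 minus its 0 mg/kg group, less log2 expression at 45 mg/kg phenobarbital minus its own 0 mg/kg group. A positive value means that a transcript moved further up, or less far down, with BDE-47. The comparison used 20 of the 74 arrays of the series, 5 in each of the 4 groups, and covered 14217 genes, each read through 1 probe set. The 50 and 45 mg/kg doses are not matched, so a larger response to an agent is a statement about these doses only.

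All animals were of the Crl:WI(Han) stock and were dosed by oral gavage. For BDE-47 the labels give daily dosing of the dams on gestation days 6 to 21 and of the pups on postnatal days 12 to 21, with evaluation on postnatal day 22. The schedule in the labels names the brominated diphenyl ethers only. No separate day range is given for phenobarbital, so an equal exposure window and age are not shown. Each agent has a 0 mg/kg group of its own. RNA came from frozen pieces of the left liver lobe and was read on Affymetrix rat expression arrays. Nothing in the labels says that animals of a group came from separate litters, so the p-values cover the variation among these samples and no more.

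Phenobarbital is the classic activator of the constitutive androstane receptor (CAR), a nuclear receptor of hepatocytes that, with its relative the pregnane X receptor (PXR), switches on cytochromes P450, conjugating enzymes and transporters that clear drugs. In rat liver the Cyp2b, Cyp2c and Cyp3a genes are its textbook targets. Brominated diphenyl ethers are known to induce many of the same enzymes, and the question here was where the congener moved genes more, less or the other way.

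The array medians of the 20 arrays lay between 4.87 and 5.03 on the log2 scale, and within a group an array correlated with its fellows at a mean r of 0.990 to 0.995. Albumin (Alb), the main hepatocyte product, read 14.71 to 14.94. The pancreas markers Cpa1, Pnlip and Prss1 read 3.25 to 3.90, 3.77 to 4.15 and 2.97 to 3.53. Cela1, on the same list of pancreas and gut markers, read 9.91 to 10.75, and the source of that signal was not tested. Replicates 3 and 4 of BDE-47 0 mg/kg were nearly identical and entered as their mean, so that group counts 4 samples. Replicate 3 of BDE-47 50 mg/kg was nearly identical to an array labelled 15 mg/kg, so counts are also given without it. Responses quoted at 15 mg/kg BDE-47 include the matching array and carry the same doubt. Values of the agents look normalized separately, so levels are set side by side across agents but were not tested. Arrays of bulk tissue cannot tell fewer cells of a type from less RNA per cell.

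At an adjusted p below 0.05 (limma, Benjamini-Hochberg over all genes), BDE-47 changed 573 genes, 4.03% of those tested, with 334 risen (2.35%) and 239 fallen (1.68%). Phenobarbital changed 384 genes (2.7%), with 196 risen (1.38%) and 188 fallen (1.32%). Of these, 205 genes were called with both agents, 35.8% of the BDE-47 list and 53.4% of the phenobarbital list. All 205 moved in the same direction, 130 up and 75 down. Without BDE-47 50 mg/kg replicate 3 the BDE-47 count was 468 and the shared count 197. Leaving out the averaged control replicates 3 and 4 lowered the BDE-47 count to 359, and leaving out phenobarbital 45 mg/kg replicate 5 lowered the phenobarbital count to 233.

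The difference of responses itself was called for 0 of 14217 genes (0%) by limma, with a lowest adjusted p of 0.125. At an unadjusted p below 0.05 there were 605 genes (4.26%), 346 of them higher with BDE-47 (2.43%) and 259 lower (1.82%). Subtracting array medians moved that split from 57.2% higher to 75.7% higher. A fit restricted to the 4 groups called 3 genes (Cyp7a1, Gpm6a and Styxl1) and a fit with array weights called 4 (these and Lyplal1). The median 95% interval of a gene's difference reached 0.33 log2 units to either side. That width depends on the number of arrays and on the spread, which was shared over all 15 groups of the series. With only the 4 groups fitted, the SE for Cyp7a1 was 0.38 rather than 0.62. A gene not called is therefore not shown to respond alike.

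Responses correlated across the 14217 genes at a Pearson r of 0.66 and a Spearman rho of 0.49, a description over genes that are not independent replicates. Among the 334 genes risen with BDE-47, 321 also had a positive estimate with phenobarbital, with a median response of 0.56 against 0.33. Among the 239 fallen genes the medians were -0.54 and -0.29, and 227 had a negative estimate with phenobarbital. These medians favour the agent whose test chose the genes. Read from the other side, the 196 genes risen with phenobarbital had medians of 0.64 for phenobarbital and 0.59 for BDE-47. The 188 genes fallen with phenobarbital had medians of -0.50 and -0.36. Of the 605 genes at an unadjusted p below 0.05, 426 had estimates of opposite sign, 139 shared the sign with a larger size for BDE-47, and 40 shared it with a smaller size. Choosing genes by their difference favours opposite signs, and 419 of the 605 were called in neither response. The split therefore does not show that the agents move genes in opposite ways.

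**Figure D1:**
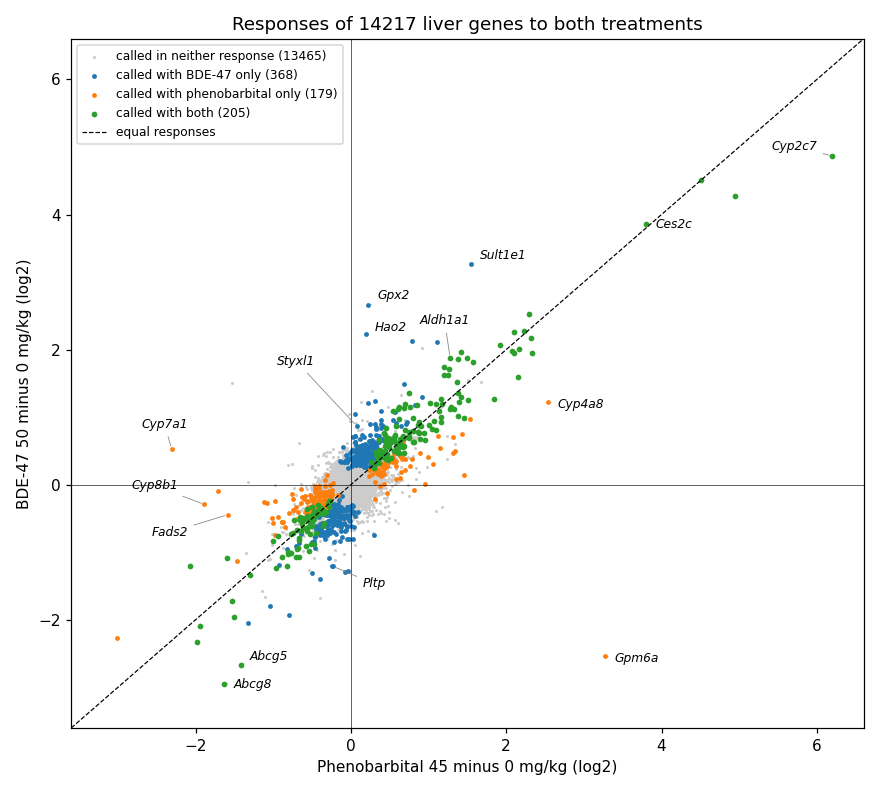
Each point is a gene: the response to phenobarbital (45 minus 0 mg/kg, log2) on the horizontal axis and to BDE-47 (50 minus 0 mg/kg, log2) on the vertical axis, with the dashed line marking equal responses. The 205 genes called with both agents (green) lie in the upper right and lower left quadrants, while Cyp7a1 and Gpm6a stand far from the line.

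Xenobiotic enzymes rose together. Of 27 measured genes on a list of CAR and PXR targets, 20 rose with each agent, 19 of them with both, and none fell, beside the 2.35% and 1.38% of all genes that rose. The list's median response was 0.98 with BDE-47 and 1.08 with phenobarbital, and its median difference was -0.07, beside 0.01 over all genes. Cyp2b1 and Cyp2b2, the best known phenobarbital targets, have no probe set of their own here and were not analysed. The transcripts of CAR (Nr1i3) and PXR (Nr1i2) were not called with either agent, at -0.64 and -0.24 with BDE-47 and -0.31 and -0.27 with phenobarbital.

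Ces2c, a carboxylesterase that cleaves ester drugs, responded strongly to both agents. Its log2 values were 8.22, 8.22, 7.90 and 7.91 in the BDE-47 controls and 11.78, 11.89, 11.77, 12.09 and 12.08 at 50 mg/kg. For phenobarbital they were 9.11, 7.84, 8.29, 9.35 and 8.20 in the controls and 12.43, 12.50, 12.36, 12.32 and 12.21 at 45 mg/kg. Treated and control samples did not overlap with either agent, and the rises were 14.5-fold and 14-fold. The difference was 0.05 (SE 0.35), with a 95% interval from -0.64 to 0.75.

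Cyp2c7, a P450 of the retinoid and steroid metabolizing 2C family, had the largest rise with both agents. BDE-47 controls read 8.16, 8.22, 8.02 and 10.09, and the treated samples 13.67, 13.41, 13.42, 13.40 and 13.54. Phenobarbital controls read 7.91, 7.41, 7.33, 6.82 and 6.87, and the treated samples 13.46, 13.58, 13.58, 13.49 and 13.23. Both treated groups therefore stood at the same level, 13.49 ± 0.12 (SD, n = 5) and 13.47 ± 0.14 (SD, n = 5), while the control means lay 1.36 apart. The responses were 4.87 and 6.20, and the difference of -1.33 (SE 0.94) had an interval from -3.22 to 0.55. Cyp2a3, another P450, rose by 4.51 with each agent, with a difference of -0.01 (SE 0.77).

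Cyp3a23-3a1, a major steroid and drug oxidizing P450, read 12.66, 13.02, 12.94 and 12.96 in BDE-47 controls and 13.82, 13.77, 13.69, 13.76 and 13.85 after BDE-47. With phenobarbital it went from 12.75, 13.00, 13.14, 13.17 and 13.10 to 14.09, 14.04, 14.04, 13.92 and 14.13. All treated samples lay above all controls of their agent. The rises were 0.89 (SE 0.12) and 1.01 (SE 0.11), and the difference of -0.12 had an interval from -0.44 to 0.20. Its neighbour Cyp3a2 rose by 0.24 with BDE-47 and 0.29 with phenobarbital (limma adjusted p 0.00987 and 0.000527), although the first call was lost without BDE-47 control replicate 1, at an adjusted p of 0.0977. Cyp3a transcripts are similar in sequence, so a probe set may read more than 1 of them.

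The promoter windows of these Cyp3a genes carry a direct repeat of the site AGTTCA with 3 bases between the copies, a form that CAR and PXR are known to bind, and are shown for that reason. They are RefSeq windows on GRCr8, 250 bases before to 50 after the start, at chr12:14398754-14399053 and chr12:14343808-14344107, both on the minus strand. Capitals mark the match, which reads as a repeat of TGAACT because the site lies on the opposite strand.
Cyp3a23-3a1: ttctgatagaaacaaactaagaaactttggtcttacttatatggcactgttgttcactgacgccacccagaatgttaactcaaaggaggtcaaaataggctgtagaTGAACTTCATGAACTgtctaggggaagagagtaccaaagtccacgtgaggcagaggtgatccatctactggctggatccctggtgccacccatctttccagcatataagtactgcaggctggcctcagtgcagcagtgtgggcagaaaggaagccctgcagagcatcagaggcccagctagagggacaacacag
Cyp3a2: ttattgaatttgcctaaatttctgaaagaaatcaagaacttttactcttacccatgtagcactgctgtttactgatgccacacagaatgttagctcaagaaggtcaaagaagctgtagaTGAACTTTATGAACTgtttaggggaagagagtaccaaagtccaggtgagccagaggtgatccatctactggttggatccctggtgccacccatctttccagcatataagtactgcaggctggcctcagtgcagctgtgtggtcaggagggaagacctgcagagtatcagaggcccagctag
Searched on both strands, the repeat matched 2 of 27457 promoter windows (0.00728%), and these were the only ones. Only this exact spelling was searched, so other spellings of such a repeat were not counted. The single AGTTCA site, which the repeat contains, matched 14.4% of windows. A match describes the letters and is not a measured binding site.

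Larger estimates for either agent occurred within the list, though no difference was called. Aldh1a1, which oxidizes retinal, read 11.28, 11.26, 11.10 and 11.10 in BDE-47 controls and 13.02, 13.08, 13.02, 13.10 and 13.12 after BDE-47. Phenobarbital controls stood higher at 11.97, 11.53, 12.10, 11.91 and 11.99, and treated samples reached 13.27, 13.19, 13.00, 13.12 and 13.30. Neither pair of groups overlapped, and the rises of 1.88 and 1.28 gave a difference of 0.60 (SE 0.22, unadjusted limma p 0.00792, not called). As with Cyp2c7, the treated groups read alike and the controls stood apart, by -0.72.

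Alas1, the first enzyme of heme synthesis, rose with BDE-47 from 10.29, 10.49, 11.10 and 11.13 to 12.49, 12.11, 12.37, 12.09 and 12.15. In phenobarbital controls it read 11.67, 11.59, 10.81, 12.24 and 11.33, overlapping the treated values of 12.36, 12.32, 12.38, 11.96 and 12.01. The BDE-47 rise of 1.49 was called, and the phenobarbital value of 0.68 was not (limma adjusted p 0.0877), except without phenobarbital control replicate 4 (0.0229). The difference was 0.81 (SE 0.32, unadjusted p 0.0147). The controls differed by -0.78.

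In the other direction, Ugt2b1, a glucuronosyltransferase, went from 12.47, 12.35, 12.46 and 12.19 to 13.45, 13.37, 13.43, 13.41 and 13.28 with BDE-47. With phenobarbital it went from 12.32, 12.57, 12.50, 12.37 and 12.17 to 13.75, 13.69, 13.71, 13.82 and 13.86. Here the controls of both agents covered the same range and the phenobarbital-treated samples stood highest. The rises of 1.02 and 1.38 differed by -0.36 (SE 0.17, unadjusted p 0.04).

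Cyp4a8, a fatty acid hydroxylase, was called with phenobarbital only, although the BDE-47 estimate was positive. Phenobarbital raised it from 4.85, 6.23, 6.01, 5.45 and 5.26 to 8.18, 8.14, 7.87, 8.37 and 7.93. BDE-47 controls were scattered at 7.44, 6.47, 5.30 and 4.84 and overlapped the treated values of 7.52, 6.88, 6.92, 7.63 and 7.21. The responses were 2.54 and 1.22 (limma adjusted p 2.77e-05 and 0.113), and the difference was -1.32 (SE 0.61, unadjusted p 0.0342). Without BDE-47 control replicate 1 the BDE-47 response was called too, at an adjusted p of 0.0239. A second probe set of the gene gave 1.72 and 0.75, with a difference of -0.98 (SE 0.34).

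**Figure D2:**
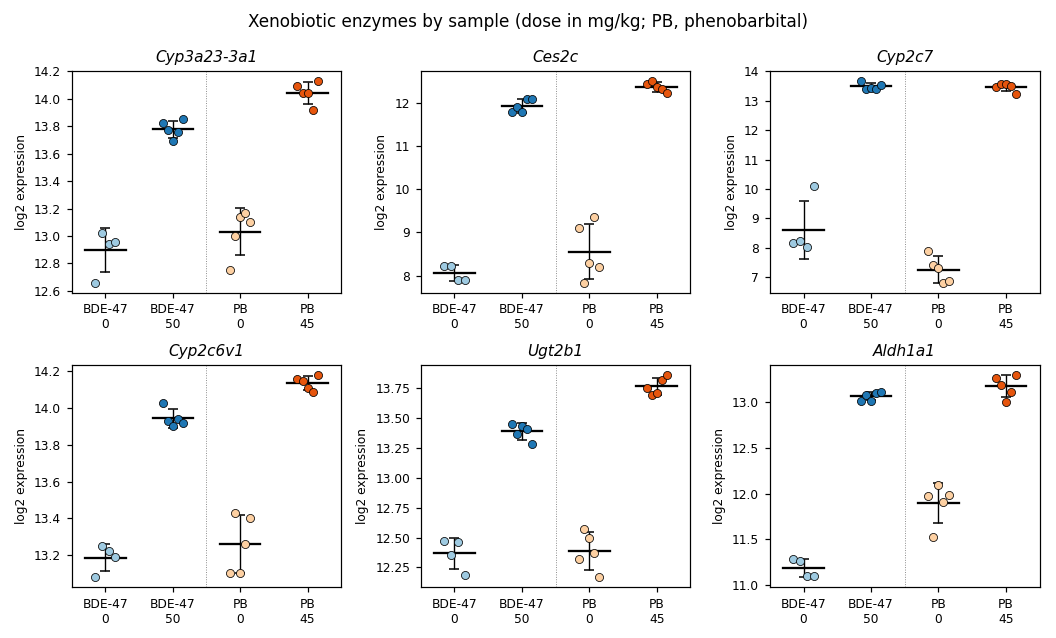
Log2 expression of 6 xenobiotic enzymes in each sample of the 4 groups (dose in mg/kg), with the mean as a bar and 1 SD as the whisker. Treated samples stand above the controls of their agent in every panel, and the controls of Aldh1a1 and Cyp2c7 differ between agents.

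Of 17 UDP-glucuronosyltransferase and sulfotransferase genes, 6 rose with each agent, 5 of them with both, and 1 fell with phenobarbital. Of 21 glutathione S-transferases 7 rose with each agent, 5 of them with both. Over all genes 2.35% rose with BDE-47, 1.38% rose with phenobarbital and 1.32% fell with phenobarbital. Sult1b1, a sulfotransferase that acts on thyroid hormone, rose by 2.27 and 2.23, and the bile exporter Abcc2 by 1.09 and 1.13, with differences of 0.04 (SE 0.49) and -0.03 (SE 0.27). The basolateral exporter Abcc3 rose by 1.72 and 1.26. App, the amyloid precursor protein, is not a drug-metabolism gene. It rose by 1.36 and 1.38, and its difference of -0.02 had an interval from -0.39 to 0.35.

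Sharing extended to genes that fell. Among the 205 genes called with both agents, 111 had a 95% interval of the difference within 1.5-fold either way, 65 risen and 46 fallen. The remaining shared genes were not shown to respond alike. Cxcl13, a B-cell attracting chemokine, fell by 2.10 with BDE-47 and by 1.94 with phenobarbital. Of 34 urea cycle and amino acid catabolism genes 11 fell with BDE-47 and 9 with phenobarbital, 6 with both, beside the 1.68% and 1.32% of all genes that fell. They included glutamine synthetase (Glul, -0.82 and -0.66), the methyl transferase Gnmt (-0.83 and -1.01) and argininosuccinate lyase (Asl, -0.58 and -0.62). The BDE-47 count of this list was 7 without BDE-47 50 mg/kg replicate 5. Of 30 proteasome subunits 9 rose with BDE-47 and 6 with phenobarbital, beside 2.35% and 1.38% of all genes. The second count was 2 without phenobarbital 45 mg/kg replicate 5 and 3 without phenobarbital control replicate 3.

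Key genes of bile acid synthesis fell with phenobarbital and were not called with BDE-47. Cyp7a1, which encodes the hydroxylase that commits cholesterol to bile acids, read 10.60, 9.56, 10.15, 10.12 and 10.20 in phenobarbital controls and 6.62, 7.87, 8.59, 7.99 and 8.03 at 45 mg/kg. BDE-47 controls read 9.14, 9.37, 9.30 and 8.81, and samples at 50 mg/kg read 9.51, 9.69, 9.24, 9.87 and 10.11. Every phenobarbital-treated sample lay below every control, while the BDE-47 groups overlapped and the treated mean was the higher. Phenobarbital lowered the transcript 4.95-fold (log2 -2.31, SE 0.42, limma adjusted p 0.000214), and BDE-47 gave 0.53 (SE 0.45, adjusted p 0.646).

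The difference for Cyp7a1 was 2.84 (SE 0.62), with a 95% interval from 1.60 to 4.07, an unadjusted p of 2.19e-05 and an adjusted p of 0.125, so it was not called. Restricted to the 4 groups, the same difference had an SE of 0.38 and an adjusted p of 0.00164 and was called. Leaving out 1 sample at a time kept it between 2.54 and 3.03. Control levels moved with it, since BDE-47 controls averaged 9.16 ± 0.25 (SD, n = 4) and phenobarbital controls 10.13 ± 0.37 (SD, n = 5). Treated levels stood in the opposite order, 9.68 ± 0.33 (SD, n = 5) and 7.82 ± 0.73 (SD, n = 5). At the lower doses neither agent moved Cyp7a1 by a called amount, with 0.34 at 15 mg/kg BDE-47 and 0.50 at 5 mg/kg phenobarbital.

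Cyp8b1, the sterol hydroxylase that sets the cholic acid share of bile, fell with phenobarbital as well. Phenobarbital took it from 9.16, 9.69, 10.08, 8.84 and 9.32 to 6.91, 6.34, 8.74, 8.23 and 7.44, without overlap. With BDE-47 the controls of 9.97, 9.14, 8.66 and 8.45 overlapped the treated values of 9.53, 8.47, 8.62, 8.71 and 8.49. The responses were -1.88 (limma adjusted p 0.00115) and -0.29 (0.818), and the difference was 1.59 (SE 0.57, unadjusted p 0.0065, not called). Cyp27a1, a mitochondrial sterol hydroxylase, fell by 0.43 with phenobarbital (adjusted p 0.0184), against -0.14 with BDE-47. These 3 genes were all that fell with phenobarbital among 27 measured genes of bile acid synthesis and transport, and none of the 27 fell with BDE-47 (limma), while 3 rose with BDE-47 and 2 with phenobarbital. Over all genes 1.32% fell with phenobarbital and 1.68% with BDE-47, and 2.35% rose with BDE-47 and 1.38% with phenobarbital. The list's median difference was 0.07.

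The sterol exporter genes Abcg5 and Abcg8 fell with both agents, with the larger estimates for BDE-47. They encode the partners of the transporter that secretes cholesterol and plant sterols into bile. Abcg8 read 6.70, 7.36, 6.95 and 6.70 in BDE-47 controls and 3.51, 4.18, 4.38, 3.73 and 4.13 at 50 mg/kg. Phenobarbital controls read 7.36, 6.52, 5.82, 7.62 and 7.23, and treated samples 5.86, 5.55, 5.24, 4.23 and 5.53. The BDE-47 groups were well separated, and the phenobarbital groups met at 5.82 and 5.86.

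Abcg8 fell by 2.94 with BDE-47 and by 1.63 with phenobarbital on the log2 scale. BDE-47 samples of Abcg8 read 3.51 to 4.38, within or somewhat above the 3.25 to 3.90 of the pancreas marker Cpa1. That is low on the array scale, so the fall with BDE-47, and the difference with it, may be understated. Abcg5 fell 6.33-fold and 2.67-fold. The differences were -1.32 (SE 0.59) for Abcg8 and -1.25 (SE 0.57) for Abcg5, at unadjusted limma p of 0.0302 and 0.0334, and neither was called. Abcg5 values were 8.34, 8.68, 8.52 and 8.69 against 5.43, 5.83, 6.55, 5.77 and 5.90 with BDE-47. With phenobarbital they were 9.35, 8.53, 7.99, 9.37 and 9.0 against 8.04, 7.74, 7.54, 6.13 and 7.71, which overlap. Both phenobarbital calls were lost without single samples. Without treated replicate 4 the adjusted p was 0.165 for Abcg5 (-1.09) and 0.07 for Abcg8 (-1.36). Without control replicate 4 neither was called, and the Abcg5 call was also lost without control replicate 1 or 5.

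The pair is transcribed in opposite directions from a shared window, shown here because its members moved together. The RefSeq GRCr8 windows are chr6:15717686-15717985 on the plus strand for Abcg5 and chr6:15717681-15717980 on the minus strand for Abcg8, and 295 of their 300 bases coincide. Capitals mark GATAA, the core of the motif of GATA factors, which occurs on either strand in 26.1% of windows.
Abcg5: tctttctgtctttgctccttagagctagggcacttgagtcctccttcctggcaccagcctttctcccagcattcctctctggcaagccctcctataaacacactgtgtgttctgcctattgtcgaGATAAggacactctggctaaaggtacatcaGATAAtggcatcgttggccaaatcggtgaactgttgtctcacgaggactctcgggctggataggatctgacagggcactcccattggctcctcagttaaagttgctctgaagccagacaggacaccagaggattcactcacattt
The window held 2 matches to GATAA and 1 to AGTTCA.

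Pltp, the plasma phospholipid transfer protein, fell with BDE-47 from 8.63, 8.54, 8.42 and 7.67 to 6.88, 7.31, 7.0, 7.61 and 6.76. Phenobarbital controls of 7.93, 7.65, 8.02, 8.10 and 7.89 overlapped the treated values of 7.89, 7.66, 7.75, 7.86 and 7.23. The responses were -1.20 (limma adjusted p 2.15e-05) and -0.24 (0.654), and the difference was -0.96 (SE 0.27, unadjusted p 0.000774). Among 17 genes of sterol export and the liver X receptor (LXR), 3 fell with BDE-47 and 5 with phenobarbital, beside 1.68% and 1.32% of all genes. Abcg5, Abcg8 and Pltp were the 3 with an unadjusted p below 0.05 for the difference, all lower with BDE-47, beside 1.82% of all genes.

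Fads2, a desaturase of long-chain polyunsaturated fatty acid synthesis, read 10.83, 10.93, 10.35, 10.94 and 10.95 in phenobarbital controls and 8.46, 9.67, 9.62, 9.44 and 8.89 after treatment. BDE-47 controls read 10.69, 10.71, 10.86 and 10.98, and treated samples 10.63, 10.20, 10.53, 10.11 and 10.37. All treated samples lay below their controls, but only slightly so with BDE-47. Phenobarbital lowered Fads2 3.00-fold (limma adjusted p 4.16e-08), and BDE-47 gave -0.44 (0.284). The difference was 1.14 (SE 0.29, adjusted p 0.483) and the control means were 0.01 apart.

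Fads3, a relative of Fads2 in the desaturase cluster, went up where Fads2 went down. Phenobarbital raised it from 4.85, 5.20, 5.79, 5.26 and 4.85 to 6.67, 6.30, 6.13, 6.74 and 6.66, without overlap. BDE-47 samples read 5.81, 5.51, 5.89, 6.15 and 6.02 against 5.64, 4.95, 5.67 and 5.38 in controls, with overlap. The responses were 1.31 (limma adjusted p 1.03e-07) and 0.47 (0.147), and the difference was -0.84 (SE 0.25, adjusted p 0.647).

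Scd, the stearoyl-CoA desaturase, fell by 3.02 with phenobarbital (limma adjusted p 0.00581). With BDE-47 its estimate was -2.28 (adjusted p 0.0666), which was called in the fit of the 4 groups (0.00225). The difference of 0.74 had an interval from -1.31 to 2.79. Thrsp, a lipogenic thyroid hormone response gene, had estimates of 0.04 with BDE-47 and -1.32 with phenobarbital, neither called, and a difference of 1.36 (SE 0.63, unadjusted p 0.0358). The phenobarbital estimate passed the threshold in the fit of the 4 groups (adjusted p 0.0398) and without its control replicate 4 or treated replicate 4, reaching an adjusted p as low as 0.035. Other probe sets of Thrsp gave differences of 1.19 and 1.34, at unadjusted limma p of 0.191 and 0.0987. Srebf1, the transcription factor gene of fatty acid synthesis, fell by 0.87 with phenobarbital and stood at -0.56 with BDE-47. Over the 24 genes of fatty acid synthesis and desaturation the median difference was 0.17, with 16 of the 24 above 0, beside 7300 of all 14217 genes.

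Other lipid genes rose with both agents. Lipoprotein lipase (Lpl) rose by 1.96 and 1.42 and malic enzyme (Me1) by 1.86 and 1.37, with differences of 0.54 (SE 0.45) and 0.48 (SE 0.54). The Me1 rise with phenobarbital was lost on leaving out any of 4 samples, with the highest adjusted p without treated replicate 5 (limma, 0.106). Of 20 genes of cholesterol synthesis and uptake, Msmo1 and Sc5d rose with both agents and no other was called, beside the 2.35% and 1.38% of all genes that rose. The list's median response was 0.45 with BDE-47 and 0.37 with phenobarbital.

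Of the 368 genes called with BDE-47 only, 133 had an unadjusted p below 0.05 for the difference, beside 4.26% of all genes. Choosing genes called with 1 agent only favours a difference, so this count is a description. Hao2, a peroxisomal hydroxyacid oxidase, went from 3.55, 4.11, 3.87 and 3.87 to 6.69, 6.73, 6.54, 5.00 and 5.43 with BDE-47. Phenobarbital values were 3.67, 3.67, 4.14, 3.47 and 3.54 in controls and 3.5, 4.19, 3.82, 4.42 and 3.5 after treatment. The BDE-47 groups were separate and the phenobarbital groups mixed. Controls read close to the 3.25 to 3.90 of the pancreas marker Cpa1, near the array floor. The rise of 2.23 with BDE-47 (limma adjusted p 5.8e-05) may therefore be understated. The phenobarbital value was 0.19, and the difference on the array scale was 2.04 (SE 0.53, interval 0.97 to 3.10, adjusted p 0.494). At 15 mg/kg the BDE-47 estimate was 1.14 and was not called.

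Gpx2, a glutathione peroxidase best known from gut epithelium and as an NRF2 target, read 4.22, 5.07, 4.27 and 3.95 in BDE-47 controls and 7.70, 7.12, 7.31, 8.07 and 4.95 at 50 mg/kg. Phenobarbital samples read 3.82, 3.69, 4.09, 3.83 and 5.37 and then 4.77, 4.12, 3.94, 4.52 and 4.56. Of the BDE-47 samples 4 stood far above the controls and replicate 5 stood among them. The rise with BDE-47 was 2.65 on the log2 scale (limma adjusted p 0.00146), from controls low on the array scale, against 0.22 with phenobarbital. The difference of 2.43 (SE 0.78, unadjusted p 0.00272) was not called. Aox1, an aldehyde oxidase on the same NRF2 list, gave 0.72 (adjusted p 0.00153) and 0.06, while the NRF2 target Nqo1 gave 0.08 and 0.84, neither called. The list as a whole did not lean to BDE-47. Its 26 measured genes had a median difference of -0.01, with 12 above 0 and 14 below. Of the 26, 7 rose with BDE-47 and 4 with phenobarbital, 4 of them with both, beside 2.35% and 1.38% of all genes.

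Sult1e1, the estrogen sulfotransferase, rose with BDE-47 from 3.43, 3.53, 3.99 and 3.59 to 7.64, 6.97, 7.07, 6.07 and 6.78. With phenobarbital it read 4.42, 4.21, 4.30, 4.19 and 4.77 and then 5.61, 5.69, 6.07, 7.08 and 5.15. Neither pair of groups overlapped, although only the BDE-47 response of 3.27 was called (limma adjusted p 0.000307) and the phenobarbital response of 1.54 was not (0.184). The fit of the 4 groups called the phenobarbital response too (0.00243). BDE-47 controls of Sult1e1 also lay near the array floor, so 3.27 may be understated. The difference was 1.73 (SE 0.86, unadjusted p 0.0497).

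Styxl1, a pseudophosphatase, was a small but tight case. BDE-47 samples read 5.14, 5.20, 5.11, 5.30 and 5.08 over controls at 4.25, 4.39, 4.32 and 4.24. Phenobarbital samples read 4.86, 4.87, 4.82, 4.78 and 4.94 over controls at 4.78, 4.78, 4.84, 4.72 and 4.78. The difference was 0.79 (SE 0.19, adjusted p 0.172) over all groups. With only the 4 groups in the limma fit the SE was 0.09 and the adjusted p 0.000241, which made it a call. The controls differed by -0.48, and all values lay close to the array medians.

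Lyplal1, a lysophospholipase-like hydrolase, had the smallest unadjusted p of all genes, 1.6e-05. It read 8.94, 8.79, 8.64 and 8.96 and then 9.37, 9.46, 9.44, 9.48 and 9.35 with BDE-47. Under phenobarbital it read 9.15, 9.07, 9.09, 9.09 and 9.11 and then 9.22, 9.21, 8.90, 9.34 and 9.14. The rise of 0.59 with BDE-47 was called, and the difference was 0.53 (SE 0.11, limma adjusted p 0.125). It was called with the near-identical arrays kept separate (0.0394). Phkb, the phosphorylase kinase beta subunit, gave 0.72 and 0.05, with a difference of 0.67 (SE 0.18).

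**Figure D3:**
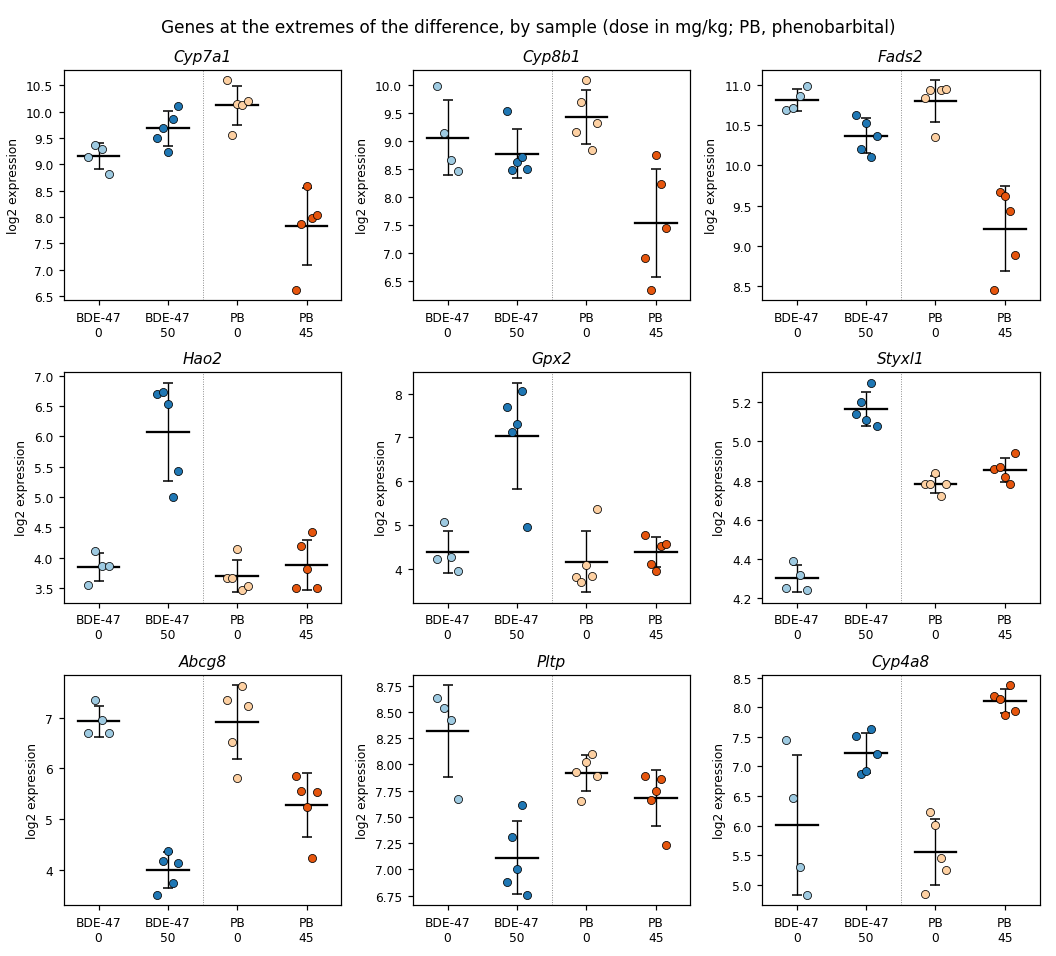
Log2 expression of 9 genes at the extremes of the difference, in each sample of the 4 groups (dose in mg/kg), with the mean as a bar and 1 SD as the whisker. Cyp7a1, Cyp8b1 and Fads2 fall with phenobarbital, Hao2, Gpx2 and Styxl1 rise with BDE-47, and Abcg8 falls with both.

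Of the 179 genes called with phenobarbital only, 39 had an unadjusted p below 0.05 for the difference, beside 4.26% of all genes. Here too the choice of genes favours a difference. Phlda3, a p53 target that restrains AKT signalling, rose with phenobarbital from 6.33, 6.07, 5.83, 5.63 and 6.25 to 6.58, 6.91, 7.09, 7.33 and 6.99. BDE-47 controls of 6.27, 6.69, 6.82 and 7.53 already covered the treated values of 6.72, 6.88, 7.10, 6.62 and 6.87. The responses were 0.96 (limma adjusted p 0.00219) and 0.01, the difference -0.95 (SE 0.30), and the controls differed by 0.81. Gstm3, a glutathione S-transferase, rose by 1.0 with phenobarbital and stood at 0.42 with BDE-47, with a difference of -0.58 (SE 0.22).

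Gpm6a, a neuronal membrane glycoprotein, had the largest estimate of all genes, -5.82 (SE 1.30, limma adjusted p 0.125). It read 7.26, 7.37, 6.55 and 8.04 in BDE-47 controls and 4.96, 3.23, 4.21, 4.11 and 7.32 after treatment. Phenobarbital controls read 3.93, 4.51, 4.38, 4.11 and 4.63, and treated samples 8.01, 7.11, 7.30, 7.07 and 8.45. The control groups thus lay 2.99 apart, without overlap. Over all groups the phenobarbital response of 3.27 was called (limma adjusted p 0.0261) and the BDE-47 response of -2.54 was not (0.127). The phenobarbital call was lost on leaving out any of 4 samples, with the highest adjusted p without treated replicate 5 (0.0831). In the fit of the 4 groups Gpm6a was called with both agents in opposite directions, the only gene that was. Marchf11, a ubiquitin ligase read near the array floor at 2.83 to 3.5, gave -0.21 and 0.31, and its difference of -0.52 was called only without phenobarbital control replicate 5 (0.0308).

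Genes of the aryl hydrocarbon receptor (AhR), the dioxin sensor, gave no called difference. Of 16 measured targets 2 rose with BDE-47 and 1 with phenobarbital, beside 2.35% and 1.38% of all genes. None of the 16 differences had an unadjusted p below 0.05 in limma, beside 4.26% of all genes. Cyp1a1, its most inducible P450, went from 8.97, 10.84, 9.55 and 8.66 to 11.65, 11.35, 11.42, 12.02 and 11.60 with BDE-47. Phenobarbital took it from 8.72, 9.05, 7.64, 9.34 and 8.81 to 9.35, 9.89, 9.91, 10.26 and 9.68. Neither pair of groups overlapped. The responses were 2.11 (limma adjusted p 0.0287, lost on leaving out any of 6 samples, up to 0.105 without BDE-47 control replicate 1) and 1.11 (0.414), and the difference of 1.0 had an interval from -0.66 to 2.65. Cyp1a2 gave -0.26 with BDE-47 and -0.57 with phenobarbital, a fall called at 0.0316 over all samples that was lost on leaving out any of 8 samples, up to 0.137 without treated replicate 5.

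Macrophage markers fell with BDE-47, and none was called with phenobarbital. Of 10 measured markers of Kupffer cells, the resident liver macrophages, 6 fell with BDE-47 and 0 with phenobarbital (limma adjusted p), beside 1.68% and 1.32% of all genes. For the difference, 5 had an unadjusted p below 0.05, all lower with BDE-47, beside 1.82% of all genes. None of the 10 differences was called. The list's median difference was -0.46 and stayed between -0.49 and -0.43 under both other scalings. Its mean level was 8.49 to 8.94 in BDE-47 controls and 7.87 to 8.32 after BDE-47, without overlap. For phenobarbital it was 8.35 to 8.77 and 8.29 to 8.82. Without BDE-47 50 mg/kg replicate 3 the fallen count was 4 and the median difference -0.43, and without BDE-47 control replicate 1, control replicate 2 or treated replicate 5 the fallen count was 3. The count of 5 differences was 2 without BDE-47 control replicate 2, phenobarbital control replicate 5 or phenobarbital treated replicate 1.

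Clec4f, a galactose-binding lectin specific to rodent Kupffer cells, read 10.11, 10.22, 10.05 and 9.76 and then 9.35, 9.31, 8.86, 9.51 and 9.14 with BDE-47. With phenobarbital it read 10.03, 9.73, 9.77, 9.94 and 9.31 and then 10.02, 9.75, 9.63, 9.66 and 9.44. The BDE-47 groups did not overlap and the phenobarbital groups did. The responses were -0.80 (limma adjusted p 0.00978) and -0.05, and the difference was -0.74 (SE 0.28, unadjusted p 0.00898). The complement gene C1qc, made mainly by macrophages, gave -0.73 and -0.19, and Csf1r, their growth factor receptor, gave -0.68 and -0.25. Ctss, the cathepsin of antigen-presenting cells, gave -0.80 and 0.03, with a difference of -0.83 (SE 0.24).

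Cd74, the invariant chain of MHC class II antigen presentation, read 8.68, 9.70, 7.95 and 7.78 in BDE-47 controls and 7.27, 7.26, 6.96, 7.78 and 6.94 after BDE-47. Phenobarbital samples read 7.72, 7.94, 8.05, 8.18 and 7.68 and then 9.16, 7.31, 7.55, 7.44 and 7.69. The BDE-47 groups met at 7.78. The responses were -1.29 (limma adjusted p 0.0165) and -0.08, and the first was not called without BDE-47 control replicate 1 or 2, at -0.90 (0.187) without the latter. Of 11 measured genes of that pathway 2 fell with BDE-47 and 0 with phenobarbital, beside 1.68% and 1.32% of all genes, and the BDE-47 count was 0 without control replicate 1 or 2 and 1 without treated replicate 5. The median difference was -0.44. Median differences of other marker lists were -0.22 for erythroid cells, -0.14 for neutrophils, -0.04 for endothelium, -0.03 for lymphocytes, 0.03 for hepatocytes and 0.09 for stellate cells. The part of cell make-up in the other differences was not tested.

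**Figure D4:**
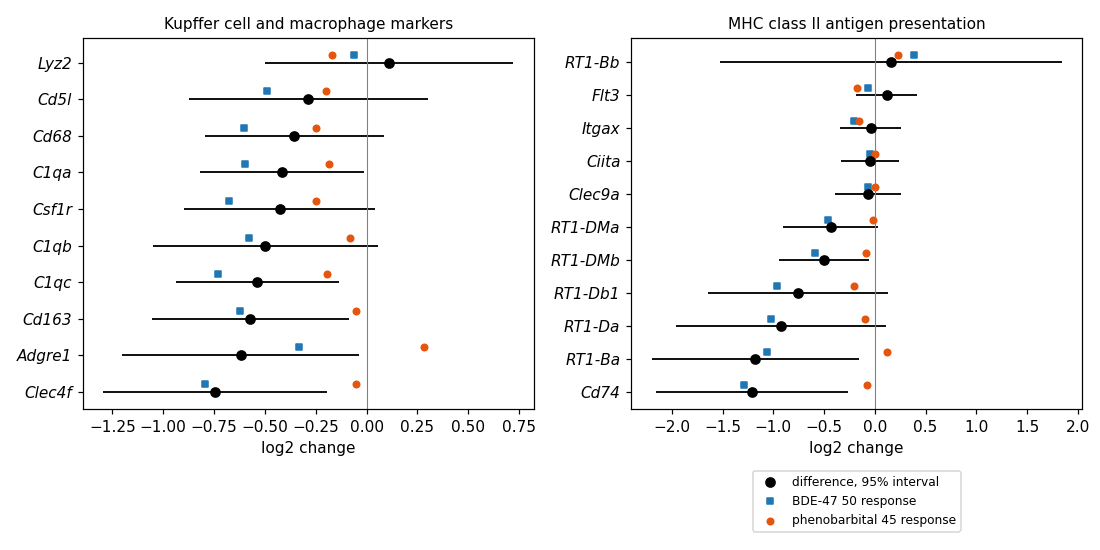
Difference of responses (log2, black points) with its 95% interval for each measured Kupffer cell marker (left) and MHC class II gene (right), with the response to each agent as small coloured points. The intervals of 5 macrophage markers lie below 0, and the phenobarbital responses sit closer to 0 than the BDE-47 responses for most genes.

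Some lists leaned one way in small steps without a single member that passed. Of 28 genes of the unfolded protein and integrated stress responses, 24 had a negative difference, with a median of -0.14 (-0.15 with BDE-47 and 0.08 with phenobarbital). Of 29 respiratory chain genes, 26 had a positive difference, with a median of 0.11, and of 30 proteasome subunits 25 did, with a median of 0.09. Over all genes 7300 differences were positive and 6917 negative, with a median of 0.01. No member of these lists had an unadjusted p below 0.05 for its difference, beside 4.26% of all genes. Control levels differed in each. The respiratory chain averaged 10.87 to 10.98 in BDE-47 controls and 11.18 to 11.26 in phenobarbital controls. The stress list averaged 8.34 to 8.54 and 8.54 to 8.88, and the proteasome list 9.51 to 9.58 and 9.67 to 9.80.

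**Figure D5:**
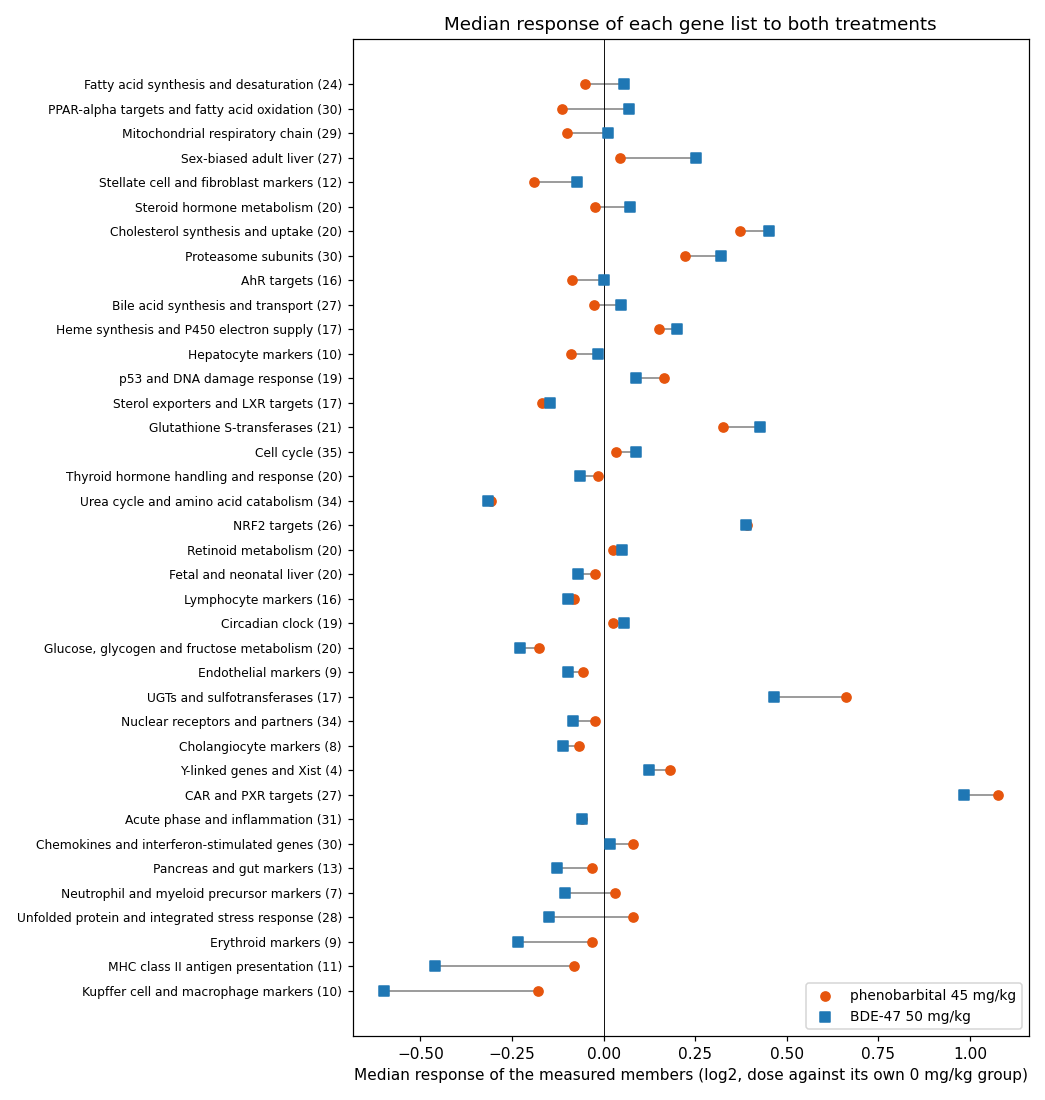
Median response of the measured members of each of the 38 gene lists (log2, each dose against its own 0 mg/kg group), with phenobarbital as circles and BDE-47 as squares, ordered by the median difference and with the number of measured members in brackets. The CAR and PXR targets lie farthest right for both agents, and the Kupffer cell and MHC class II lists show the widest gaps below 0.

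Control levels entered the differences broadly. Across all genes the BDE-47 controls stood a median of 0.14 log2 units below the phenobarbital controls. Of the 346 genes higher with BDE-47 at an unadjusted p below 0.05, 301 had a control difference below that median, and of the 259 lower genes 229 had one above it. The controls are part of the difference by construction, and control level and response cannot be told apart here.

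Side by side, the other dose groups placed these genes as follows, each against its own 0 mg/kg group and with no test between agents or doses. At 15 mg/kg BDE-47, Ces2c rose by 3.41, Aldh1a1 by 1.54, Alas1 by 1.32 and Lyplal1 by 0.37, while Abcg8 fell by 2.36, Abcg5 by 1.79, Pltp by 0.76 and C1qc by 0.64 (limma adjusted p at most 0.0379). These 15 mg/kg values include replicate 3, which was nearly identical to BDE-47 50 mg/kg replicate 3, and none are given without it. At 5 mg/kg phenobarbital, Cyp2c7 rose by 3.27, Ces2c by 1.67, Ugt2b1 by 0.96 and Cyp2c6v1 by 0.64. Cyp7a1, Cyp8b1 and Fads2 were not called at 5 mg/kg, with 0.50, 0.38 and -0.26. At 50 mg/kg of DE-71, a brominated diphenyl ether mixture, Styxl1 rose by 0.82, Gpx2 by 2.30, Hao2 by 1.36 and Sult1e1 by 5.50, and Abcg8 fell by 1.81. Clec4f and C1qc were not called there, at 0.19 and 0.21, and Cyp7a1 stood at 0.03. Of the 4 arrays of that DE-71 group, replicate 4 was nearly identical to replicate 5 of DE-71 15 mg/kg. The DE-71 values include it, and none are given without it.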

How the data were processed

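The authors deposited log2 expression values per probe set, summarised with RMA per the submitters' processing notes. The annotation named a single gene for 20826 of 31099 probe sets, several for 436 and none for 9780, with 57 controls left out. Where several single-gene probe sets read a gene, the brightest on average stood for it, which left 14217 genes, and no further normalization was applied. limma 3.58.1 (R 4.3.3) fitted 1 mean per group over 72 samples of 15 groups, so that groups shared 1 estimate of spread per gene. Python 3.11.15 and pandas 2.3.3 handled the tables. Calls used a Benjamini-Hochberg adjusted p below 0.05 over all genes, and intervals cover 95%. Precision is limited by the number of arrays and depends on which groups share the spread. The script was tested on simulated data.

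Near-identical arrays differed by a root mean square under 0.3 over 300 genes, those with the highest variance among genes averaging 7 or more. This held for 4 of 656 pairs, at 0.162 for BDE-47 0 mg/kg replicates 3 and 4 and 0.105 for BDE-47 replicate 3 at 15 and 50 mg/kg. For DE-71 it was 0.124 between 15 mg/kg replicate 5 and 50 mg/kg replicate 4, and 0.202 for 15 mg/kg replicates 1 and 2. Sorted values of the arrays varied less within an agent (SD 0.04 for BDE-47 and 0.0249 for phenobarbital) than together (0.0745).

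The members and lists were chosen with earlier results of these data known. Genes were named as the 10 smallest p-values each way, up to 2 members of each list by p, genes called in opposite directions, a set of index genes and the 10 largest shared responses. Asl, Csf1r, Cyp27a1, Cyp2a3, Cyp3a2, Glul, Gnmt, Msmo1, Sc5d and Srebf1 were chosen after their values were seen. Alternatives covered the groups in the fit, array weights, scaling, probe set rule, low values, near-identical arrays, a replicate block and each sample left out.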

Additional observations from a re-analysis of the deposited data

Results flagged for a closer look

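A sample stood far from the others of its group for 9 of 168 combinations of gene and group examined. Chance does so in about 1 in 20 groups. Cyp8b1 read 9.53 in BDE-47 50 mg/kg replicate 1, with the others at 8.47 to 8.71, and Cyp2c6v1 read 14.03 in the same sample, with the others at 13.9 to 13.94. Abcg5 read 6.13 in phenobarbital 45 mg/kg replicate 4, against 7.54 to 8.04. Fads2 read 10.35 in phenobarbital 0 mg/kg replicate 3, against 10.83 to 10.95, and Cyp1a2 read 12.63 there, against 13.15 to 13.33. Cyp2c7 read 10.09 in BDE-47 0 mg/kg replicate 5, against 8.02 to 8.22. Gpx2 read 5.37 in phenobarbital 0 mg/kg replicate 5, against 3.69 to 4.09. Cd74 read 9.16 in phenobarbital 45 mg/kg replicate 1, against 7.31 to 7.69, and App read 11.36 in replicate 3 of that group, against 11.64 to 11.73.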

How the results depend on the processing

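No called gene value changed sign under the alternatives run. Of 365 gene values 49 did under at least 1 alternative, none of them called, such as the BDE-47 response of Cyp8b1 (-0.49 to 0.01 with samples left out) and the difference for Ces2c (-0.14 to 0.23). Of the difference of responses, 3 genes were called with only the 4 groups fitted, 2 higher and 1 lower with BDE-47, of which 2 had responses of opposite sign and 1 a larger one. That fit called 901 genes with BDE-47, 1 in opposite directions with both agents, and put 197 shared genes within 1.5-fold. With near-identical arrays kept separate, 1 gene was called, higher and larger with BDE-47, and 991 genes with BDE-47. Array weights gave 4 calls of the difference, 3 higher and 1 lower, 2 of opposite sign and 2 larger, with 931 genes at an unadjusted p below 0.05. They gave 971 calls with BDE-47, 836 with phenobarbital, 364 shared and 249 shared within 1.5-fold. Keeping only genes with a mean of at least 6 left 373 at an unadjusted p below 0.05.

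Chosen after seeing the data, the 4 groups with array weights gave 3 calls, 2 higher and 1 lower, 2 of opposite sign and 1 larger. They gave 699 calls with phenobarbital, 321 shared in the same direction and 1 in opposite directions, and 211 shared within 1.5-fold. The 4 groups without BDE-47 50 mg/kg replicate 3, also added, gave 3 calls, 2 higher and 1 lower, 2 of opposite sign and 1 larger, with 1 gene called in opposite directions. The cause of these changes was not tested.

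Leaving out each sample gave 0 to 1 calls of the difference, 0 to 0 higher and 0 to 1 lower, 0 to 1 of opposite sign, and 479 to 638 at an unadjusted p below 0.05. It gave 359 to 615 calls with BDE-47, 233 to 389 with phenobarbital, 159 to 204 shared and 79 to 107 shared within 1.5-fold. Replicate numbers did not pair the samples, with deviations correlating at -0.155 to 0.188. A replicate block gave 0 calls of the difference and 699 at an unadjusted p below 0.05, with 621 calls for BDE-47 and 413 for phenobarbital.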
